A study of Mus musculus with 4 samples.

Results

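The binding of E2A was examined at the genes of the Id family, Id1, Id2, Id3 and Id4, in double-positive (DP) and invariant natural killer T (iNKT) thymocytes. A peak was assigned to an Id gene when its midpoint lay in the gene body or within 100 kb of it on mouse genome build mm9. By this rule, 49 of the 17532 DP peaks and 6 of the 1516 iNKT peaks were found at Id loci. Id3 had 21 DP peaks and 5 iNKT peaks, Id2 had 13 DP peaks and 1 iNKT peak, Id1 had 15 DP peaks and no iNKT peak, and Id4 had no peak in either cell type. All 6 iNKT peaks overlapped a DP peak (95% Wilson interval 61.0 to 100%, counting error only), as did 69.3% of all iNKT peaks, a share within that interval.

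E2A is the product of Tcf3 and belongs to the E proteins, basic helix-loop-helix transcription factors that bind the E-box CANNTG as dimers. Id proteins have the helix-loop-helix domain but lack the basic region that contacts DNA, so that an E protein paired with an Id protein cannot bind its site. In developing T cells Id3 is induced by signals through the pre-TCR and the TCR, and Id2 is prominent in NK cells, innate lymphoid cells and effector T cells. Id1 is a classical target of BMP signaling, and Id4 is best known from the nervous system. The comparison addresses whether E2A occupies the genes of its own inhibitors when the proteins of Id2 and Id3 are missing.

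The thymocytes were from L-DKO mice, whose genotype is LckCre+ with Id2 f/f and Id3 f/f, and in which Cre under the control of Lck deletes the floxed Id2 and Id3 alleles in thymocytes. DP cells were sorted as CD1dTet- CD4+ CD8+ and iNKT cells as CD1dTet+ TCRβ+, from mice of 3 to 5 weeks, with 3 to 4 mice pooled per sample. The background of the mice was C57BL/6 or a hybrid of C57BL/6 with 129, and the labels do not say which was used for a sample. Peak positions give no expression, so the sorted cell types could not be checked against their markers. Each cell type had 1 E2A library and 1 input library, which is chromatin that was not precipitated, so there is no replicate error and no test between cell types. Both groups carry the deletion, and no group with intact Id2 and Id3 is part of these peak lists. A deleted segment gives no reads, and the positions of the loxP sites are not given in the sources used here, so the absence of a peak or a low score inside or beside Id2 and Id3 cannot be told apart from missing DNA. Read numbers are not part of the lists, and the depth behind a peak or its absence is therefore not known. The score of a peak is the MACS value, 10 times the negative log10 of its p-value, with a minimum of 50 in both lists. Scores also rise with depth and were therefore compared within a list only, as ranks.

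The 6 sites at which both cell types had a peak are shown because the comparison of cell types at the Id loci turns on them. Each sequence is the 200 bases at the midpoint of the iNKT peak, from the mm9 reference genome (plus strand). The E-box cores CAGGTG, with its reverse complement CACCTG, and CAGCTG, both forms of CANNTG, are in capitals, as is the Egr motif GCGTGGGCG with its reverse complement, whose 2 copies overlap in the first sequence. Distances are those of the iNKT midpoint from the transcription start site.
Id3, 61.5 kb upstream (chr4:135637838-135638037): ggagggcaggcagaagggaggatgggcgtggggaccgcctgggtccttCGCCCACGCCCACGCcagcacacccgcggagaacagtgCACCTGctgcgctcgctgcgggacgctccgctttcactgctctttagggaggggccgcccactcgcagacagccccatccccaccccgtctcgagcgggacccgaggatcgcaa
Id3, 54.0 kb upstream (chr4:135645355-135645554): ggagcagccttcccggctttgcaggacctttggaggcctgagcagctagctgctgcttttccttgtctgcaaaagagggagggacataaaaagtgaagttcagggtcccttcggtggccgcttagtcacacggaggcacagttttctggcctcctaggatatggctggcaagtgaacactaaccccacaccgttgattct
Id3, 32.7 kb upstream (chr4:135666589-135666788): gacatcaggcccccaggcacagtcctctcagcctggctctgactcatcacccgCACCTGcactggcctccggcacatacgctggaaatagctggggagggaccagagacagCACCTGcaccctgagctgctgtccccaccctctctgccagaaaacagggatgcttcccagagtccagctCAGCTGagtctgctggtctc
Id3, 15.9 kb upstream (chr4:135683442-135683641): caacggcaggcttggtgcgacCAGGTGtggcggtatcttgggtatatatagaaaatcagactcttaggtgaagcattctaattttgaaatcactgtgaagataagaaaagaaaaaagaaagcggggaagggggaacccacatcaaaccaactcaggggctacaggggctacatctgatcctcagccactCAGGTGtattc
Id3, 34.1 kb downstream (chr4:135733452-135733651): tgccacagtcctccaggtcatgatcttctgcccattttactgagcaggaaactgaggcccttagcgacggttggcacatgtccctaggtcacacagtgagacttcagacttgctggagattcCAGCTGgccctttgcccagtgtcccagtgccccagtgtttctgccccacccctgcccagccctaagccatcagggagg
Id2, 93.7 kb upstream (chr12:25874600-25874799): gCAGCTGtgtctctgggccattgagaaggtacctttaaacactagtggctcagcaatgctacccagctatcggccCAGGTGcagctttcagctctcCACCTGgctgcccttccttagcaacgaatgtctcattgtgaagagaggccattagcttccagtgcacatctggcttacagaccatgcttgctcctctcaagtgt

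The following 200 bases are at the midpoints of 3 DP peaks without an iNKT counterpart, chosen because they are high-scoring peaks of Id2 and Id1 with a marked E-box core near the midpoint. The other Id1 peak with a score of 3100, 80.8 kb downstream, is not shown, and its 200 midpoint bases held neither core. Strand, build and capitals are as above.
Id2, 82.6 kb upstream (chr12:25863429-25863628): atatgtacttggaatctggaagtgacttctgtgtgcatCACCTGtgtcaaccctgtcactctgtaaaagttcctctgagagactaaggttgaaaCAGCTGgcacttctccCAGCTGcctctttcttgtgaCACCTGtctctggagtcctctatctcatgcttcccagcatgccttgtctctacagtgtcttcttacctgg
Id2, 3.04 kb downstream (chr12:25777816-25778015): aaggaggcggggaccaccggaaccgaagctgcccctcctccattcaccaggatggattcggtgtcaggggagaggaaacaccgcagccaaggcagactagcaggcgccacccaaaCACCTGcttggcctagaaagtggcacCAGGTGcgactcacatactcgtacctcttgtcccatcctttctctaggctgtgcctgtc
Id1, 58.2 kb downstream (chr2:152620113-152620312): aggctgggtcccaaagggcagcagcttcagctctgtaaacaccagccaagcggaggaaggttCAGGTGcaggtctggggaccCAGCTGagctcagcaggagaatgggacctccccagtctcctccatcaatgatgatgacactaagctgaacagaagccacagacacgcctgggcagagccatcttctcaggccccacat

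Id3, an Id gene on the plus strand (chr4:135699412-135701670), had the most peaks of the family within 100 kb in both cell types, while at 200 kb Id2 had more DP peaks. Of its 21 DP peaks, 15 lay upstream of the start site and 6 downstream. The highest score, 3100, was reached 53.9 kb upstream by the DP peak spanning 135644188 to 135646769, and 32.6 kb downstream by the DP peak spanning 135728934 to 135735065. This score is shared by 258 DP peaks, all at rank 27, and thus by the top 1.62% of the list at most. The highest score in the DP list was 3225. Whether 3100 is a ceiling of the score was not tested, so it is read here as a tie and not as a graded value. Next came 3 upstream peaks, with scores of 1908 at 47.2 kb, 1640 at 61.5 kb and 1314 at 42.7 kb. They ranked 692, 870 and 1189. These 3 and the 53.9 kb peak are intergenic and lie between Id3 and Rpl11, which encodes a protein of the large ribosomal subunit. A pair of DP peaks in introns of Rpl11, 99.2 and 98.0 kb upstream, scored 696 and 427. The other DP peaks more than 10 kb from the start site that met no iNKT peak had scores of 64.8 to 376.

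The 5 iNKT peaks of Id3 fell on 5 of these DP peaks. The strongest, 54.0 kb upstream, spanned 135644209 to 135646700 and had a score of 375 and rank 85 of 1516, and its DP counterpart was 1 of the peaks with a score of 3100. At 61.5 kb upstream the iNKT peak had a score of 179 and was in the top 15.7% of its list, and the DP peak had a score of 1640 and was in the top 4.96% of its own. At 34.1 kb downstream, in an intron of E2f2, a gene for a cell cycle transcription factor, the iNKT peak had a score of 174 and rank 254. It lay within the 6132 bp DP peak there, which is the widest at any Id locus and scored 3100. The iNKT peaks at 54.0 kb and 34.1 kb were in the top 5.61% and 16.8% of their list.

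The other shared sites of Id3 scored lower within each list. At 32.7 kb upstream the iNKT peak had a score of 132, in the top 24.9% of its list, and the DP peak had a score of 533, in the top 18.1% of its own. At 15.9 kb upstream the iNKT peak had a score of 57.3, in the top 77.6%, and the DP peak had a score of 343, in the top 26.2%. This iNKT score is close to the minimum score of the iNKT list. The DP peaks with scores of 1908 and 1314 had no iNKT peak, although they scored above the DP peaks at 32.7 and 15.9 kb that had one. The order of the DP scores was thus not the order in which sites were also called in iNKT cells.

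Close to Id3 itself the scores were below those of the strongest upstream peaks. A DP peak from 135700216 to 135701304, with its midpoint in an intron 1.35 kb downstream of the start site, scored 115 and ranked 9992, a value that cannot be told apart from the effect of deleted DNA in this floxed gene. Peaks at 2.89 kb upstream, 4.38 kb downstream and 6.33 kb downstream scored 106, 592 and 116. No peak of either list covered the start site. By nearest start site, 10 of the 21 DP peaks belonged to Id3, 8 to Rpl11, 2 to E2f2 and 1 to Tcea3, which encodes a transcription elongation factor. Of the 5 iNKT peaks, 2 were nearest to Id3, 2 to Rpl11 and 1 to E2f2. Because the windows overlap, Rpl11 itself counted 20 DP and 4 iNKT peaks and E2f2 counted 18 and 5, and position alone does not say which gene a site acts on.

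**Figure D1:**
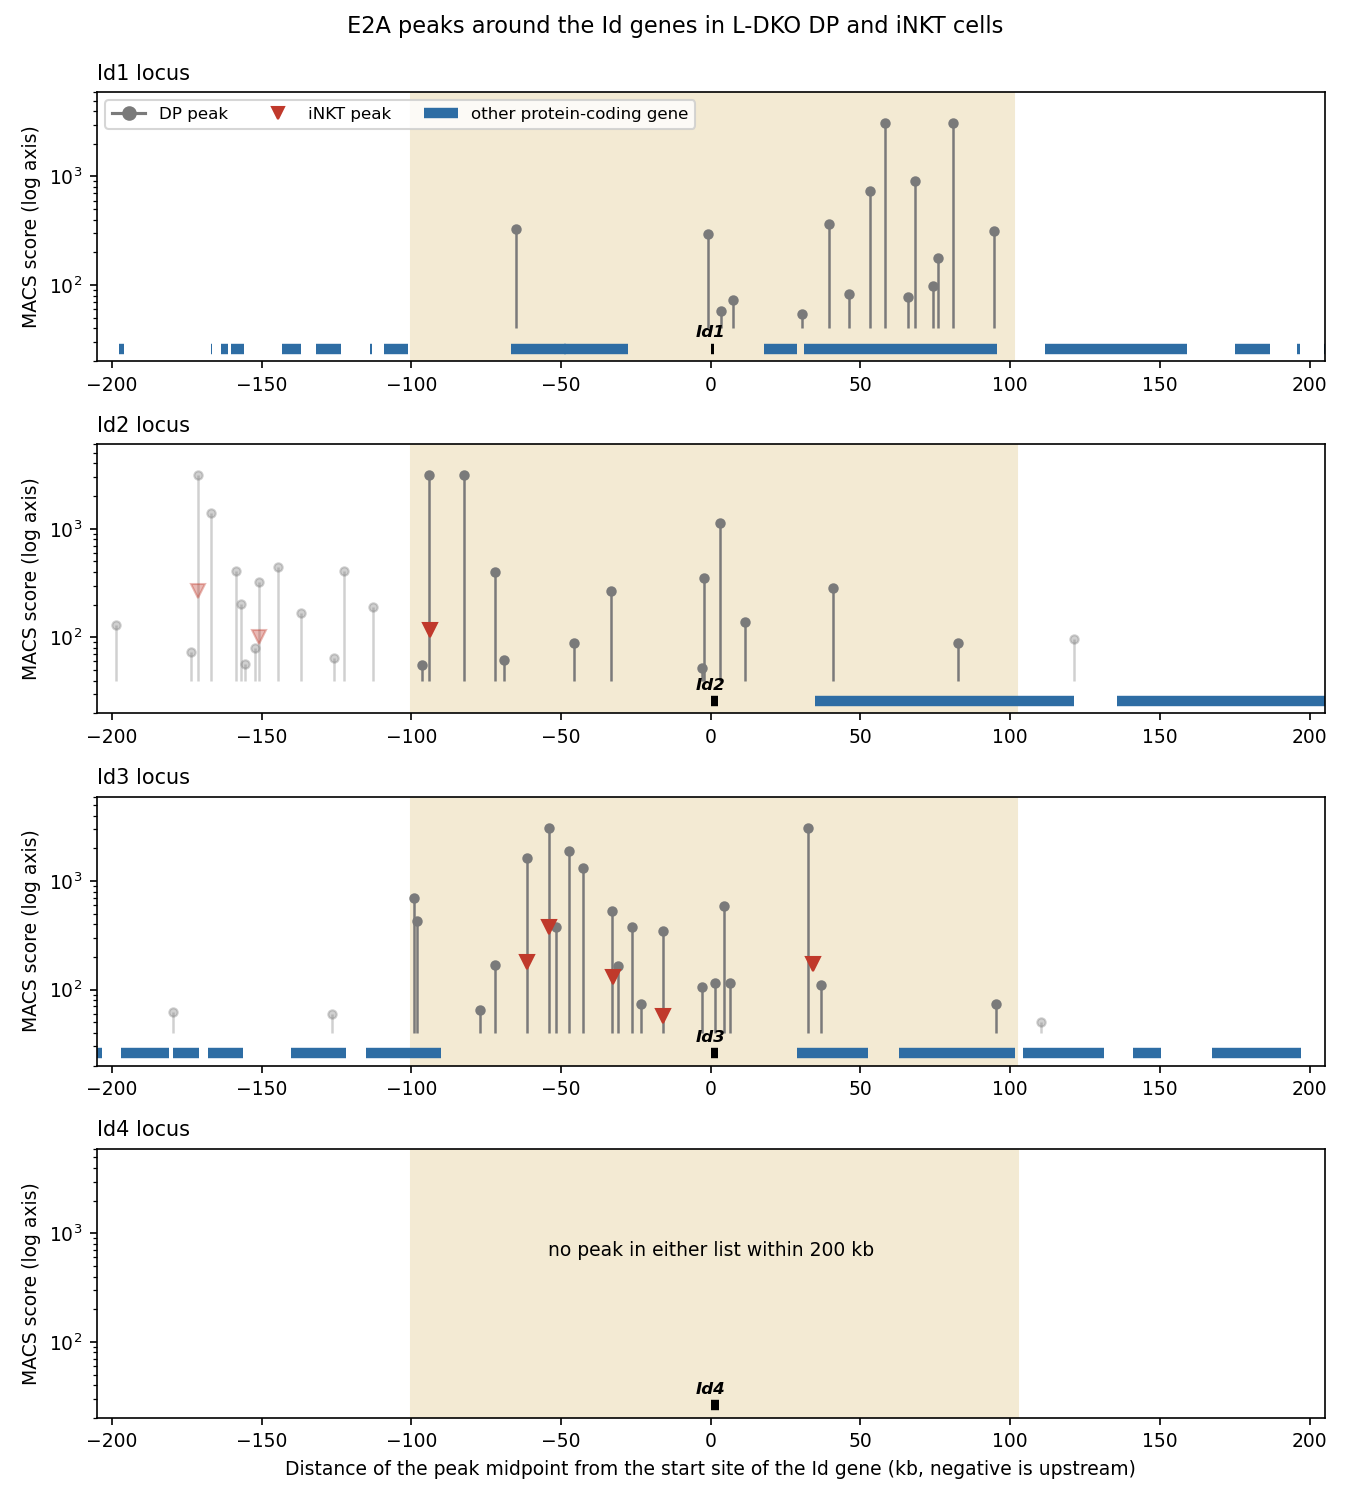
E2A peaks around the start site of each Id gene, with distance in kb on the horizontal axis, the MACS score on a log axis, DP peaks as gray stems, iNKT peaks as red triangles, the 100 kb window shaded, peaks outside it pale, and the Id gene (black) and other protein-coding genes (blue) below. The Id3 peaks, 5 of them shared, crowd upstream, the Id2 peaks with a score of 3100 lie 82.6 and 93.9 kb upstream, the Id1 peaks with that score lie within a neighboring gene, and Id4 has none.

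Id2, on the minus strand (chr12:25778666-25780957), had 13 DP peaks, 9 upstream and 4 downstream, in a window with no other start site of a protein-coding gene. For 12 of them Id2 had the nearest start site, and the other was nearest to Kidins220, which encodes a scaffold protein at the membrane. A high-scoring DP peak close to the gene ran from 25776954 to 25778876, 3.04 kb downstream of the start site at the 3′ end of Id2, with a score of 1129 and rank 1439. On the other side, a peak from 25782769 to 25783701, 2.28 kb upstream, scored 350 and ranked 4532. Its edge was 1.81 kb from the start site. Intermediate scores were found 72.0 kb upstream (403), 33.3 kb upstream (267) and 40.9 kb downstream (288), the last in an intron of Kidins220. The other 6 DP peaks scored 52.7 to 138.

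The strongest DP peaks of Id2 were distant. A peak 82.6 kb upstream (25862400 to 25864657) and a peak 93.9 kb upstream (25873003 to 25876808) both scored 3100. The iNKT list held a peak at the second, from 25873491 to 25875908, with a score of 118 and rank 433, and none at the first. In the iNKT peak a CACCTG core at 25874696 to 25874701 lay 0.5 bp from the midpoint, and a CAGGTG core stood close beside it in the sequence shown. The 200 bases at the DP midpoint of the 82.6 kb site have 2 CACCTG and 2 CAGCTG cores. At the DP midpoint of the 93.9 kb site, 206 bp from that of the iNKT peak, the 200 bases held neither core.

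The limit of 100 kb is a convention, and binding at Id2 did not stop there. The last DP peak inside the window, 96.3 kb upstream, scored 55.5, and the first outside it on that side, 113 kb upstream, scored 192. From 100 to 200 kb there were 15 further DP peaks, 14 of them upstream, with scores of up to 3100. For Id3 the outermost DP peak inside, 99.2 kb upstream, scored 696, and the first outside, 110 kb downstream, scored 50.3. For Id1 the outermost peak inside was 94.6 kb downstream with a score of 317, and the next was 307 kb away with a score of 50.2.

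Id1, on the plus strand (chr2:152561987-152563146), had 15 DP peaks, 2 upstream and 13 downstream. Of these, 10 had their midpoint inside Bcl2l1, which encodes Bcl-xL, the survival factor of DP thymocytes. Both peaks with a score of 3100 were in introns of Bcl2l1, from 152618944 to 152621480, 58.2 kb downstream of the Id1 start site, and from 152640811 to 152644703, 80.8 kb downstream. Peaks with scores of 914, 738 and 367 were also in introns of this gene, 68.2, 53.3 and 39.4 kb from the Id1 start site. A peak with a score of 317 covered the start site of Bcl2l1. The nearest start site was that of Bcl2l1 for 7 peaks, Cox4i2, a subunit of cytochrome c oxidase, for 4, Id1 for 3 and H13, the signal peptide peptidase, for 1.

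The 3 DP peaks nearest to Id1 scored below the 4 strongest in Bcl2l1. The peak from 152560244 to 152561557 ended 430 bp before the Id1 start site, with a score of 295 and rank 5185, and was the closest to its start site of any peak at an Id locus. Peaks 3.30 and 7.32 kb downstream scored 57.3 and 72.7, at ranks 15956 and 13560 of 17532. The remaining 6 DP peaks of Id1 scored 53.8 to 327, the highest of them in H13. No iNKT peak was called within 100 kb, and the nearest in the iNKT list was 600 kb downstream with a score of 88.2.

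Id4, on the plus strand (chr13:48356796-48359405), had no peak within 100 kb in either list, and no other start site lay in its window. Its nearest DP peak was 255 kb downstream with a score of 225, and its nearest iNKT peak was 1.64 Mb upstream with a score of 219. Of the 22350 protein-coding genes, 7480 others at least 1 Mb from Id4 also had no peak in either list.

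The number of peaks was set beside all protein-coding genes. A DP peak within 100 kb was found for 65.1% of them and an iNKT peak for 16.9%, and with 4 genes the presence of a peak at 3 of 4 Id genes in DP cells and 2 of 4 in iNKT cells is no result beside these shares. The number of peaks per gene was then compared. Genes with at least as many DP peaks made up 0.421% for Id3 (94 genes), 1.95% for Id1 and 3.36% for Id2, where the median gene had 2 DP peaks and the 90th percentile was 8. These shares depended on the window. At 50 kb they were 0.738% for Id3, 8.73% for Id1 and 6.17% for Id2, and at 200 kb they were 1.54%, 8.87% and 0.810%. Genes with at least 5 iNKT peaks, as Id3 had, made up 0.0895% (20 genes, Id3 included). With the numbers of Id3 at other windows this share was 0.318% (71 genes) at 50 kb and 0.206% at 200 kb, and among genes under 5 kb, at 100 kb, it was 0.223%. Only 1 other protein-coding gene reached both numbers of Id3, the 4435 kb gene model Gm20388, which had 176 DP and 15 iNKT peaks. These shares are descriptions, since neighboring genes count the same peaks.

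**Figure D2:**
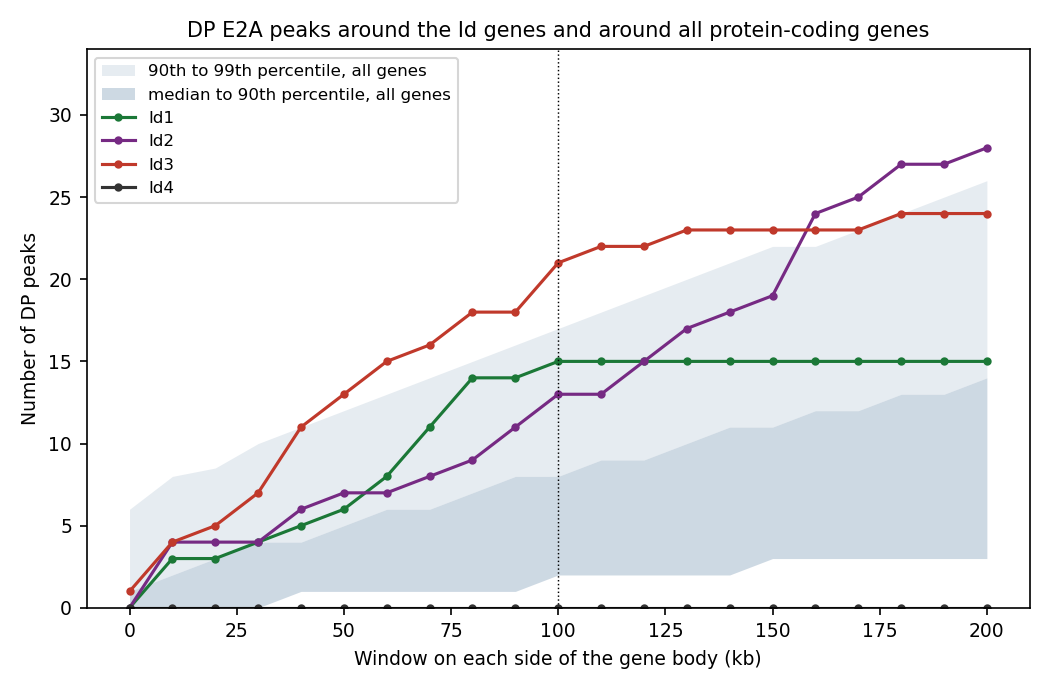
Number of DP peaks (vertical axis) as the window on each side of the gene body widens from 0 to 200 kb (horizontal axis), for the 4 Id genes as lines and for all protein-coding genes as bands from the median to the 90th and from the 90th to the 99th percentile. Id3 is above the 99th percentile at 50 kb and has 21 peaks at 100 kb and 24 at 200 kb, Id1 stays at 15 beyond 100 kb, and Id2 passes Id3 at 160 kb and reaches 28 at 200 kb.

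The distance at which peaks accumulated differed between the genes. At 50 kb Id3 had 13 DP peaks, above the 99th percentile of 12, while Id1 had 6 and Id2 had 7. At 200 kb Id2 had 28, above the 99th percentile of 26, Id3 had 24 and Id1 still had 15. Id4 stayed at 0.

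No peak of either list covered the start site of an Id gene, and a DP peak covered the start site of 9.36% of protein-coding genes. For Id2 and Id3 this absence cannot be told apart from missing DNA. From 250 bases before to 50 bases after the start site, neither CAGGTG nor CACCTG occurred in any of the 4 Id promoters, while 19.95% of all protein-coding promoters held it. The general E-box CANNTG occurred only at Id2, in the form CAGCTG, against 69.6% of all promoters for CANNTG and 15.2% for CAGCTG. These motifs are letters in the reference sequence and say nothing about a factor. With 4 genes, the counts for start sites and motifs are no result beside the shares of all genes.

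The median score of the Id peaks was higher than that of the DP list. It was 295 with quartiles of 89.3 and 696, and that of all DP peaks was 141 with quartiles of 76.2 and 366. A score of 3100 was reached by 6 of 49, 2 each at Id1, Id2 and Id3, or 12.2% (95% Wilson interval 5.73 to 24.2, counting error only), and by 1.47% of all DP peaks. A score of 100 or more was found in 35 of 49, or 71.4% (57.6 to 82.2), and in 62.6% of all DP peaks, within that interval. Id1 had 9 such peaks, Id2 had 8 and Id3 had 18. The median score was 375 at Id3, 295 at Id1 and 267 at Id2, with lowest values of 64.8, 53.8 and 52.7. The 49 peaks had a median width of 1137 bp, against 984 bp for all DP peaks, and a median GC content of 51.2%, against 48.7%.

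**Figure D3:**
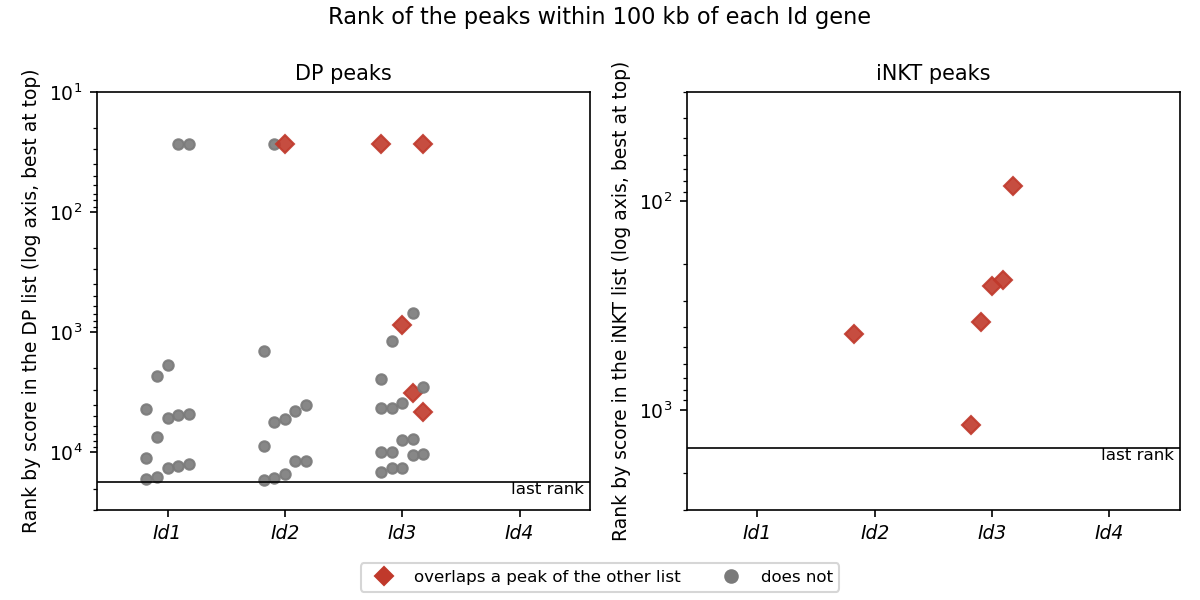
Rank by score, on a log axis with the best rank at the top, of each peak within 100 kb of an Id gene in the DP list (left) and the iNKT list (right), with red diamonds for peaks that overlap a peak of the other list and gray circles for the rest. Each of Id1, Id2 and Id3 has 2 DP peaks at the tied rank 27, and the iNKT peaks of Id3 range from rank 85 to rank 1176.

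The overlap between cell types was counted at each gene. Of the 49 DP peaks, 6 overlapped an iNKT peak, or 12.2% (5.73 to 24.2), and 5.99% of all DP peaks did, which is inside the interval. By gene these were 5 of 21 at Id3, 1 of 13 at Id2 and 0 of 15 at Id1, and a difference between the genes was not tested. In the other direction it was all 6 iNKT peaks, beside 69.3% of the iNKT list. The number of overlapping DP peaks depended on the settings. It was 3 with a window of 50 kb and 1 with both lists held to a score of 200 or more. The overlapping DP peaks had a median score of 2370, which rests in part on tied scores of 3100, and the other 43 a median of 178. Among the DP peaks with a score of 3100, 3 of 6 overlapped an iNKT peak, and 58.9% of all DP peaks with that score did. With the score held to 1000 or more, 4 of 10 DP peaks at Id loci (95% interval 16.8 to 68.7%) and 31.9% of all overlapped one.

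The E-box content at the midpoints was within counting error of that of the whole list. The core CAGGTG or CACCTG was present in the 200 bases at the midpoint of 21 of 49 DP peaks, or 42.9% (30.0 to 56.7), and of 43.9% of all DP peaks. For the iNKT peaks it was 4 of 6 against 52.9% of all. Over the whole peak it was 41 of 49, or 83.7%, against 79.0% of all DP peaks. CAGCTG was present at the midpoint of 18 of 49, or 36.7% (24.7 to 50.7), against 29.0%. Per kb of peak, the DP peaks of Id3 held 2.04 CAGGTG or CACCTG sites, those of Id2 1.77 and those of Id1 1.65, and all DP peaks held 1.62. The 6132 bp DP peak in E2f2 held 13 such sites, and the 80.8 kb peak of Id1 held 12.

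At the shared sites the cores were not always at the midpoint. The 54.0 kb site of Id3, the strongest in iNKT cells, had none of the marked cores in the 200 bases shown, and its nearest CAGGTG core lay 236 bp from the iNKT midpoint. The 34.1 kb site had CAGCTG there, and its nearest CAGGTG core lay 226 bp away. At the 61.5, 32.7 and 15.9 kb sites of Id3 the nearest core was 10.5, 14.5 and 75.5 bp away. The midpoint of a called peak is not a summit, and the lists give no summit.

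**Figure D4:**
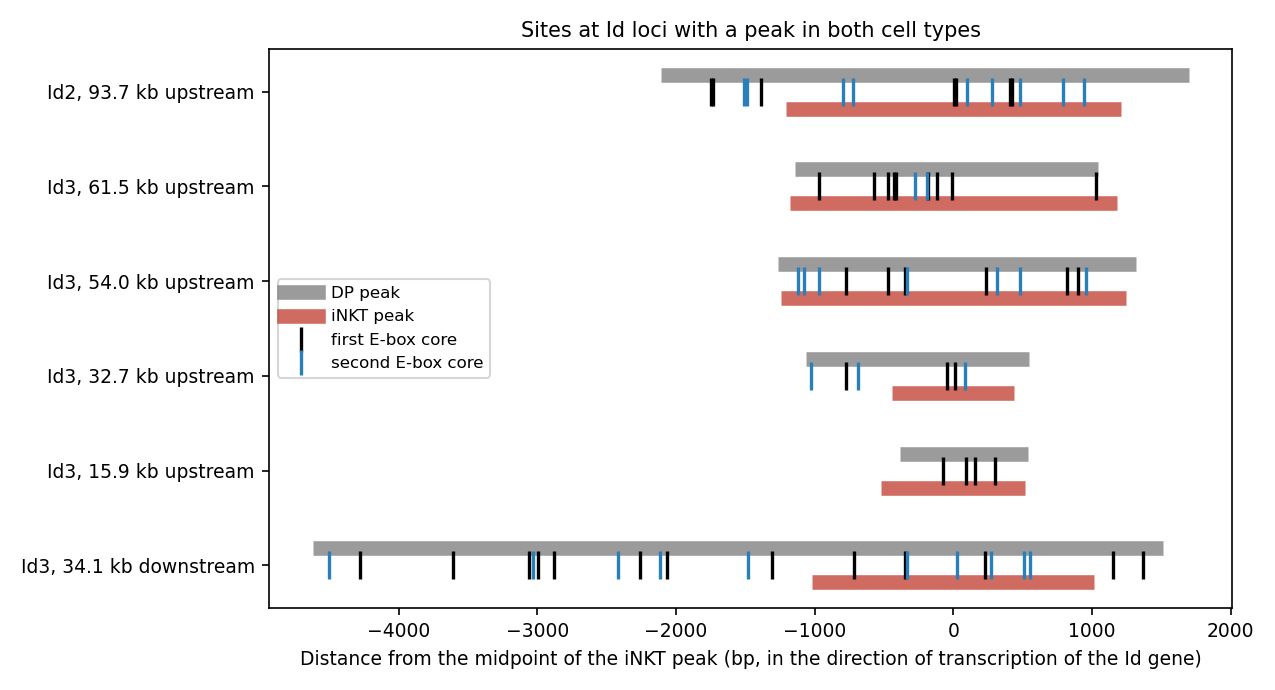
The 6 sites at Id loci with a peak in both cell types, each drawn to scale around the midpoint of the iNKT peak in bp, with the DP peak in gray, the iNKT peak in red, CAGGTG or CACCTG as black ticks (first core) and CAGCTG as blue ticks (second core) across the DP peak. The DP and iNKT midpoints are 24 to 262 bp apart at 5 sites and 1552 bp apart at the site downstream of Id3, where the DP peak is widest.

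Other motif letters were searched in the same 200 bases on both strands. The Runx letters ACCACA were in 8 of 49 DP peaks, or 16.3% (8.51 to 29.0), against 23.8% of all. The Tcf and Lef letters TCAAAG were in 7, or 14.3%, against 17.4%, and the Gata letters TTATCT in 4, or 8.16%, against 8.89%. The Egr letters GCGTGGGCG were in 1 DP peak, that at 61.5 kb upstream of Id3, and in 0.148% of all DP peaks. Egr factors are known to act on Id3 downstream of TCR signals, but a match to these letters, here in 2 overlapping copies, is a description and not a site. The iNKT peak on the same site held the same 2 copies, and none of the other 48 DP and 5 iNKT peaks at Id loci held these letters over its whole length. Over the whole length it was thus 1 of 49 DP peaks, or 2.04% (0.361 to 10.7), against 0.656% of all, within that interval. For iNKT peaks it was 1 of 6, against 0.923% of all.

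Lists of genes of the same pathway were described by the same rule. Of the 3 E protein genes, all had DP peaks, 5 at Tcf3, 3 at Tcf4 and 8 at Tcf12, and Tcf12 had 1 iNKT peak with a score of 51.3. Of 9 bHLH genes whose products pair with E proteins or repress at E-boxes, 6 had a DP peak, led by Hes1, a Notch target, with 15, and Bhlhe41, a repressor, with 6. Bhlhe41 had the only iNKT peak, with a score of 52.7. The median number of DP peaks was 5 for the E proteins and 2 for these bHLH genes, against 2 for all genes.

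Of 12 genes of signaling upstream of Id transcription, 11 had a DP peak and 5 an iNKT peak, with a median of 6 DP peaks. Smad3, which carries TGF-β signals, had 13 DP and 2 iNKT peaks, and Tgfbr1, a TGF-β receptor chain, had 11 and 1. Tgfbr2, its partner chain, had 10 and 2, with a top iNKT score of 462 at rank 58. Smad5, which carries BMP signals, had 6 and 1, and Egr3, induced by TCR signals, had 4 and 1. Of 10 known E protein targets of thymocytes, 8 had an entry in the annotation used, and all 8 had a DP peak, with a median of 13. Rag1 and Rag2 were among the 8 with 14 DP peaks each, and genes that lie close together count the same peaks. Cdkn1a, a cell cycle inhibitor, had 28 DP peaks and 1 iNKT peak, and Notch1, a receptor of early T cell development, had 15 and 0. Cd4, the coreceptor, had 10 and 1, and Il7r, the IL-7 receptor chain, had 4 and 1. All lists have few genes, and each count is read beside the 65.1% and 16.9% of all protein-coding genes.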

How the data were processed

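Peaks were those the authors called from E2A ChIP-Seq of L-DKO DP and iNKT cells, 1 E2A and 1 input library each. Per the methods of the study and the submitters' processing notes, Bowtie 1.1.2 placed the reads on mm9, reads without a unique best placement were discarded, and the authors ran MACS 1.4.2 for the peaks. The deposited lists give positions and a score, the negative log10 of the MACS p-value times 10, and no summit, read number or input value.

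Start positions were made 1-based. Genes came from GENCODE M1 on NCBIM37, the assembly of mm9. Peaks were assigned by midpoint, overlaps needed 1 bp, tied scores shared the lowest rank, and intervals are 95% Wilson intervals for counting error. The named genes were the Id genes, genes with the nearest start site to an Id peak, the E proteins, and from each other list the 2 with most DP peaks and those with an iNKT peak. Gm20388, Rag1, Rag2 and other peaks were chosen after their values were seen. Genes most like each Id gene were to be named too. Id3 had no gene with equal counts, and 15 of 48 for Id1 and 26 of 63 for Id2 tied, so none is named. The members and lists were chosen with earlier results of these data known. On simulated data the functions passed 9 of 9 checks. Python 3.11.15, scipy 1.17.1 and matplotlib 3.10.9 were used.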

Additional observations from a re-analysis of the deposited data

How the results depend on the processing

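With a window of 50 kb the DP counts were 6 for Id1, 7 for Id2 and 13 for Id3, the iNKT counts 0 for Id2 and 3 for Id3, the DP peaks overlapping an iNKT peak 3, and the partner bHLH genes with an iNKT peak 0. With 200 kb Id2 had 28 DP and 3 iNKT peaks. At a score of 100 or more Id1 had 9 and Id2 8 DP peaks. At 200 or more the DP counts were 8, 7 and 12 for Id1, Id2 and Id3, the iNKT counts 0 for Id2 and 1 for Id3, and 1 DP peak overlapped an iNKT peak. CAGGTG was in 83.7% of DP peaks at Id loci over the whole peak, against 79.0% of all DP peaks. Over 100 bp it was in 22.4% of DP peaks at Id loci, and no share of all DP peaks was set beside this value. The percent of genes with at least as many DP peaks was, at 50 kb, 8.73 for Id1, 6.17 for Id2 and 0.738 for Id3, and at 200 kb 8.87, 0.810 and 1.54. Among genes with a like number of start sites in their window it was 2.15 for Id2 and 0.520 for Id3, and among genes under 5 kb, an alternative chosen after seeing the data, 0.959, 1.64 and 0.257 for Id1, Id2 and Id3. Each alternative alters which peaks, bases or genes are counted, and the cause of these changes was not tested. Of 78 alternative values for 21 results, the other 48 moved by no more than 1.5 times, or stayed within the interval. Id4 had no peak under any of them. Overlap required over 50% of each peak, a window around the start site and any base in the window were among those. No paired analysis was possible because there was 1 library per group and no test. The unknown depth limits every absence of a peak in both lists.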

Other observations

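Beyond 100 kb, Id2, whose 100 kb window held no other start site of a protein-coding gene, was the Id gene with the most further binding. From 100 to 200 kb from the gene it had 15 DP peaks, 14 of them upstream, and each of these 14 had Id2 as the nearest start site of a protein-coding gene. Over the same distances Id3 had 3 DP peaks with scores of up to 62.0, and Id1 and Id4 had none. The strongest of the Id2 peaks, from 25951179 to 25953399 on chromosome 12, 171 kb upstream, scored 3100, and the iNKT peak on it, from 25951154 to 25953328, scored 265 and ranked 136 of 1516. That rank is better than that of the 93.7 kb site, which was 433. In this iNKT peak a CAGGTG core lay 2.5 bp from the midpoint. A second iNKT peak, 151 kb upstream from 25931441 to 25932494, scored 101 and ranked 543, on a DP peak with a score of 326. A DP peak at 167 kb upstream, with a score of 1386, had no iNKT peak. From 200 to 500 kb there were 8 more DP peaks around Id2, the highest with a score of 1081 at 342 kb upstream, and no iNKT peak. These distances were chosen after the values were seen. Within 200 kb of the gene body, Id2 had 28 DP and 3 iNKT peaks in all. At least as many DP peaks were found for 0.810% of protein-coding genes, and at least as many iNKT peaks for 1.90% (424 genes).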
